A study of Mus musculus with 36 samples.

Results

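The Fos, Jun and Egr immediate early factors were described across the striatum of 4 inbred mouse strains under 3 treatments. The family was taken as 10 of the 18194 genes that the probe table names, Fos, Fosb, Fosl2, Jun, Junb, Jund, Egr1, Egr2, Egr3 and Egr4, chosen by name and not by any measured value. They are represented by 15 of the 45101 probe sets of the Affymetrix Mouse Genome 430 2.0 array, and 14 of these were among the 27212 probe sets above background. The probe set that was not is one of a pair for Jund (1440265_at), which passed the detection minimum on 5 of 36 arrays. Fosl2, Jun, Egr2 and Egr3 each had a pair of detected probe sets, and the other 6 genes had 1 each. Where there is a pair, the gene's name below means the probe set of highest mean signal, and the other is called the second probe set.

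Adult male mice aged 8 to 10 weeks were compared, with 9 animals in each of the 12 groups. The strains were SWR/J, DBA/2J, C57BL/6J and 129P3/J. All groups were injected for 5 days. Saline animals received saline throughout, acute morphine animals received saline for 4 days and then a single subcutaneous dose of 20 mg/kg morphine, and chronic morphine animals were injected 3 times a day with 10 mg/kg on the first day, 20 on the next and 40 on the 2 after that, with a last dose of 40 mg/kg. Striatum was taken 4 hours after the last injection, and each of the 3 arrays of a group carried RNA pooled from 3 mice, so a value is the mean of a pool and not of an animal. The acute and chronic groups therefore differ in the last dose as well as in the history of treatment, and both are compared with the same saline arrays.

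Fos and Jun proteins pair through leucine zippers to form the transcription factor AP-1, and the Egr proteins are zinc finger factors that bind GC-rich sites. Their genes are transcribed within minutes of synaptic activity, through the kinases ERK and PKA and the factors CREB, SRF and Elk1, without any need for new protein. In striatal medium spiny neurons they respond to dopamine, glutamate and drugs of abuse, and their mRNAs are short-lived. Jund is made more steadily than the other members, and the Fosb gene also gives the truncated and long-lived protein ΔFosB, which the array does not separate from full-length Fosb. The tissue carried the marks of striatum: Penk, Tac1, Ppp1r1b, Drd1 and Drd2, markers of medium spiny neurons, had mean log2 intensities of 12.17, 11.62, 11.40, 10.34 and 10.11.

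Signals are given as the log2 of the deposited intensity, and differences between groups as log2 differences, where 1 unit is a doubling. They were tested with limma over all 27212 detected probe sets, and an adjusted p is the Benjamini-Hochberg value over those probe sets. A difference is called where the adjusted p is under 0.05. Arrays with the same treatment and the same replicate number tended to depart from their group means in the same genes (mean correlation 0.26 over 54 pairs of arrays from different strains), and the spiked hybridization controls moved with the same sets. For example, they lay at 0.29 on average in the acute arrays numbered 2 and at -0.48 in those numbered 3, on a centred log2 scale. What the number stands for is not given in the sources used here, so adjusted p-values with these 9 sets as a random block are given beside the calls. Of the saline arrays, 129P3/J replicate 3 and DBA/2J replicate 3 had low signals of the added poly-A controls (-3.40 and -3.30 on a centred log2 scale, with the SWR/J chronic replicate 2 next at -0.80), and C57BL/6J replicate 1 had a 3' Gapdh probe set 0.72 above the 5' one, where the other arrays lay near 0. Calls that depend on these 3 saline arrays are given without them too, and no member call below was lost without the SWR/J array.

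Of the Fos family, Fosl2 was the member called higher after morphine. Fosl2 encodes Fra-2, a Fos relative that lacks the strong activation domain of Fos and stays in the cell longer. Its lead probe set (1437247_at) lay between 7.46 and 8.36 on the 12 saline arrays, with a median of 7.86. On the 12 acute arrays it lay between 7.88 and 8.76 (median 8.40), and on the 12 chronic arrays between 7.87 and 8.78 (median 8.23). The 3 ranges overlapped, with the lowest acute and chronic arrays near the saline median. The difference from saline over all strains was 0.45 (SE 0.09, 95% interval 0.26 to 0.64) after acute morphine, which is 1.37-fold (limma adjusted p = 0.00371), and 0.36 (SE 0.09, 0.17 to 0.54) after chronic morphine, which is 1.28-fold (limma adjusted p = 0.0212). The mean of each morphine group was above saline in all 4 strains. Fosl2 was 1 of 14 member probe sets called after acute morphine, where 4.69% of all detected probe sets were called, and 1 of 14 called after chronic morphine, where 4.73% were. With the random block the adjusted p was 0.12 after acute and 0.28 after chronic morphine. Without the 3 saline arrays that stand apart the differences were 0.52 and 0.43, with limma adjusted p of 0.00192 and 0.00959.

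The second Fosl2 probe set (1422931_at) was not called after morphine over all strains. Its difference was -0.07 (SE 0.11) after acute morphine and 0.17 (SE 0.11) after chronic morphine, and neither was called (limma adjusted p = 0.79 and 0.37). The signals of the pair were unrelated over the 36 arrays (r = -0.03). With the mean of both as the level of the gene, the acute difference was 0.19 and was not called (limma adjusted p = 0.093), while the chronic difference was 0.27 and was called (limma adjusted p = 0.0151). Which of the 2 probe sets tracks the Fosl2 transcript was not tested.

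In DBA/2J mice the Fosl2 arrays separated. The 3 saline arrays read 7.73, 7.85 and 7.69. After acute morphine they read 8.76, 8.40 and 8.67, and after chronic morphine 8.12, 8.24 and 8.27. Every morphine array was above every saline array, and every acute array was above every chronic array. The acute difference in DBA/2J was 0.85 (SE 0.18), 1.80-fold, and was the single member call among 12 contrasts within a strain (limma adjusted p = 0.0241, and 0.0267 with the random block). In that contrast 0.974% of detected probe sets were called, and in the other 11 together 0.326%. The call was lost when DBA/2J saline replicate 1 or 3 or acute replicate 1 or 3 was left out (differences of 0.84, 0.82, 0.78 and 0.82, limma adjusted p of 0.12 to 0.13), and without the 3 saline arrays that stand apart (0.82, limma adjusted p = 0.094). It was also lost on the mean of the pair of probe sets (0.35, limma adjusted p = 0.18).

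In C57BL/6J mice the same probe set read 8.36, 7.97 and 7.74 after saline, 8.35, 8.40 and 8.23 after acute and 8.55, 8.63 and 8.78 after chronic morphine. Here the chronic arrays lay above both other groups, while saline replicate 1 lay within the acute range. The chronic difference of 0.63 (SE 0.18) missed the threshold (limma adjusted p = 0.062). In 129P3/J the saline arrays spread from 7.46 to 8.23 and the acute ones from 7.88 to 8.49, and in SWR/J from 7.81 to 8.35 and from 8.08 to 8.55. The groups of both strains overlapped.

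Fos itself, the classical marker of recent neuronal activity, was not called in any contrast. It lay between 7.47 and 9.14 on the saline arrays, between 8.00 and 8.82 after acute and between 8.01 and 9.18 after chronic morphine. The saline arrays alone spanned nearly the whole range, with C57BL/6J replicate 3 at 7.47, DBA/2J replicate 3 at 7.47 and SWR/J replicate 1 at 9.14. The differences over all strains were 0.23 (SE 0.14) after acute and 0.30 (SE 0.14) after chronic morphine (limma adjusted p = 0.37 and 0.21). The 95% intervals, -0.05 to 0.51 and 0.01 to 0.58, leave room for a rise of up to 0.58. Fosb, whose product accumulates in striatum under repeated drug exposure in the form ΔFosB, spanned 7.14 to 8.17 and differed from saline by 0.04 (SE 0.08) and 0.16 (SE 0.08), and neither was called (limma adjusted p = 0.82 and 0.23).

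**Figure D1:**
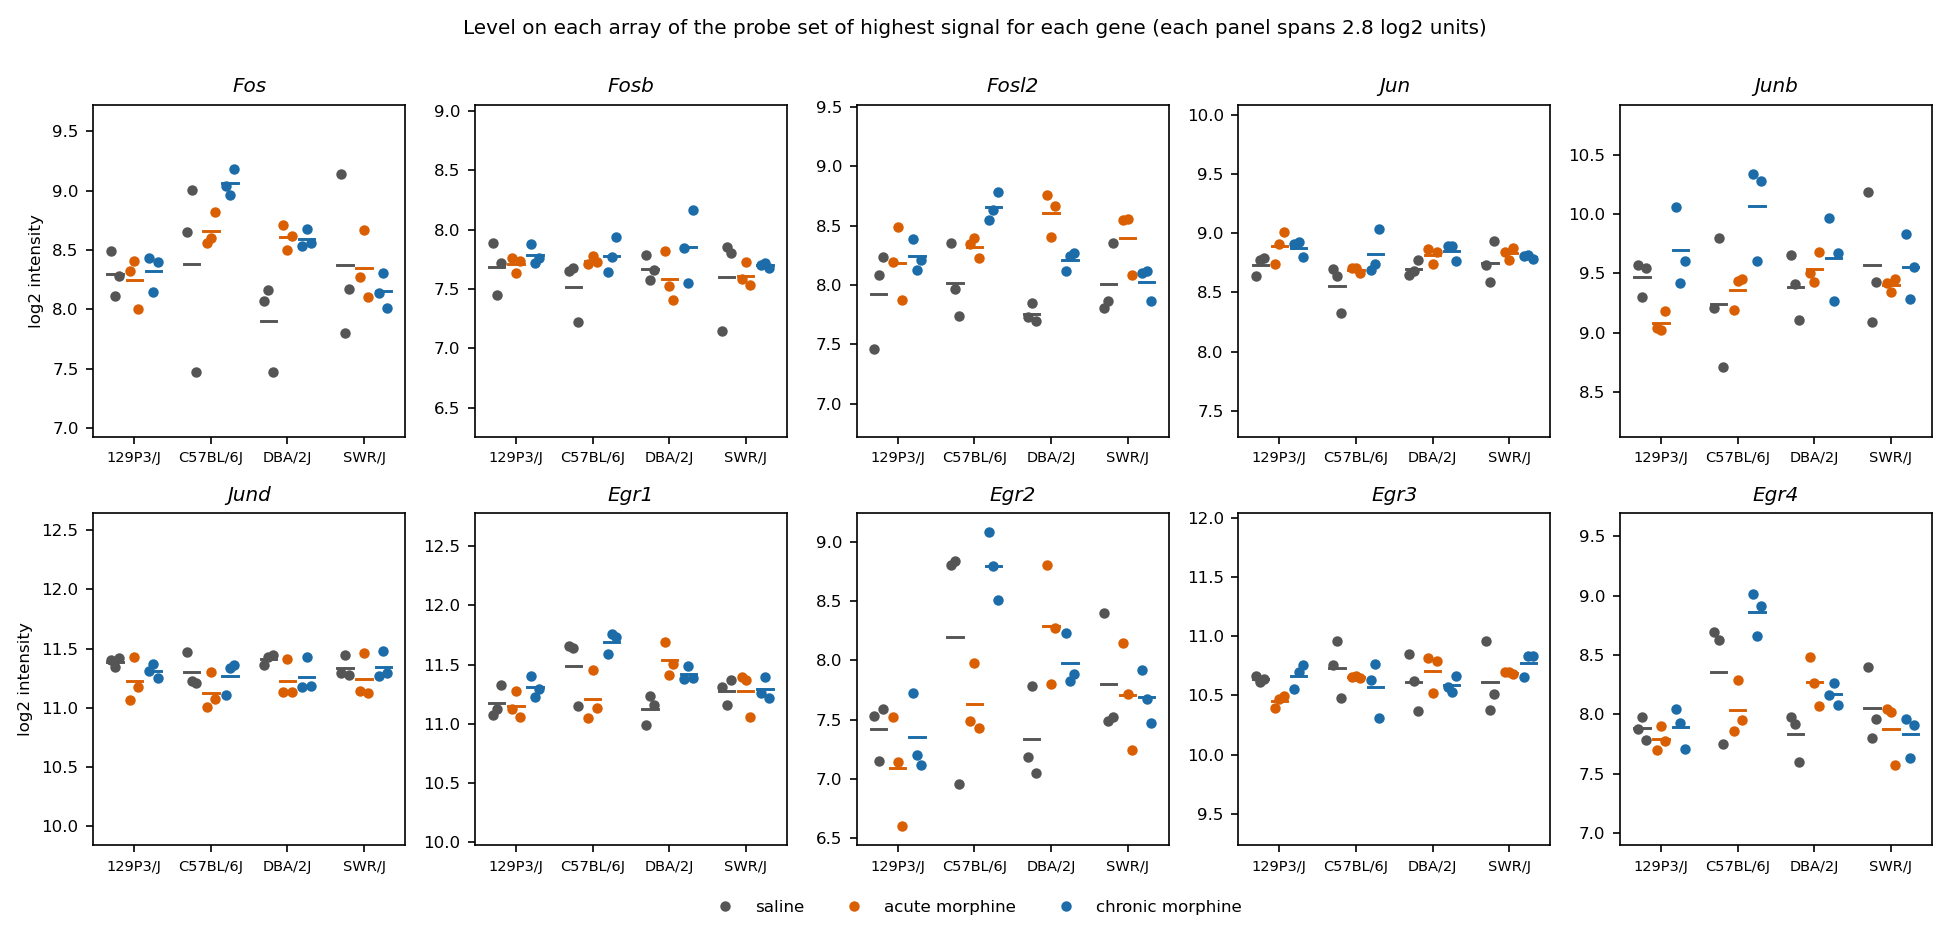
Log2 intensity (y axis) of the lead probe set of each of the 10 genes in the 12 groups, with a point for each array, a line for each group mean and colour for treatment; each panel has its own position but the same span. The DBA/2J saline arrays of Fosl2 (7.69 to 7.85) sat below all morphine arrays of that strain, and the saline arrays of C57BL/6J were far apart for Egr2 (6.95 to 8.83).

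Of the Jun family, Junb was called higher after chronic than after acute morphine, with overlapping arrays. JunB pairs with Fos proteins and in many settings restrains the activity of c-Jun. It lay between 8.71 and 10.18 on the saline arrays (median 9.42), between 9.02 and 9.68 on the acute arrays (median 9.42) and between 9.27 and 10.34 on the chronic arrays (median 9.64). The chronic arrays reached higher than the acute and saline ones, and the saline arrays spanned the whole acute range and overlapped the chronic one. Chronic exceeded acute morphine by 0.39 over all strains (SE 0.12, 95% interval 0.14 to 0.65), which is 1.31-fold, with a higher mean in all 4 strains (limma adjusted p = 0.0227). Junb was the single member of 14 probe sets called in this contrast, in which 23.4% of all detected probe sets were called. Whether the family's share differs from that of the array was not tested. With the random block the adjusted p was 0.12. The call was also lost without chronic replicate 1 of 129P3/J (0.35, limma adjusted p = 0.054) or of DBA/2J (0.35, limma adjusted p = 0.052). The chronic arrays numbered 1 were the highest chronic arrays for Junb in all 4 strains and averaged 10.05, against 9.39 for those numbered 2 and 9.78 for those numbered 3.

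Against saline, Junb differed by -0.07 (SE 0.12) after acute and 0.32 (SE 0.12) after chronic morphine, and neither was called (limma adjusted p = 0.81 and 0.12). The widest difference from saline was in C57BL/6J. There the saline arrays read 9.21, 9.80 and 8.71 and the chronic arrays 10.34, 9.61 and 10.28. Chronic replicate 2 lay below saline replicate 2, so the groups overlapped, and the difference of 0.83 (SE 0.25) missed the threshold (limma adjusted p = 0.071, and 0.054 with the random block).

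Within groups, the lead probe sets of Jun and Jund had the smallest standard deviations of the 14. Jun, which encodes c-Jun, spanned 8.33 to 9.04 over all 36 arrays and its standard deviation within groups was 0.11, at the 12.3 percentile of the detected probe sets. It was higher than saline by 0.12 (SE 0.05) after acute and 0.15 (SE 0.05) after chronic morphine, with a higher mean in all 4 strains each time, and neither was called (limma adjusted p = 0.16 and 0.068). The second Jun probe set (1417409_at) differed by 0.09 (SE 0.07) and -0.002 (SE 0.07) and followed the first only loosely over the arrays (r = 0.27). Jund lay between 11.21 and 11.47 on the saline arrays, was lower than saline by 0.15 (SE 0.06) after acute morphine, and was not called (limma adjusted p = 0.11).

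**Figure D2:**
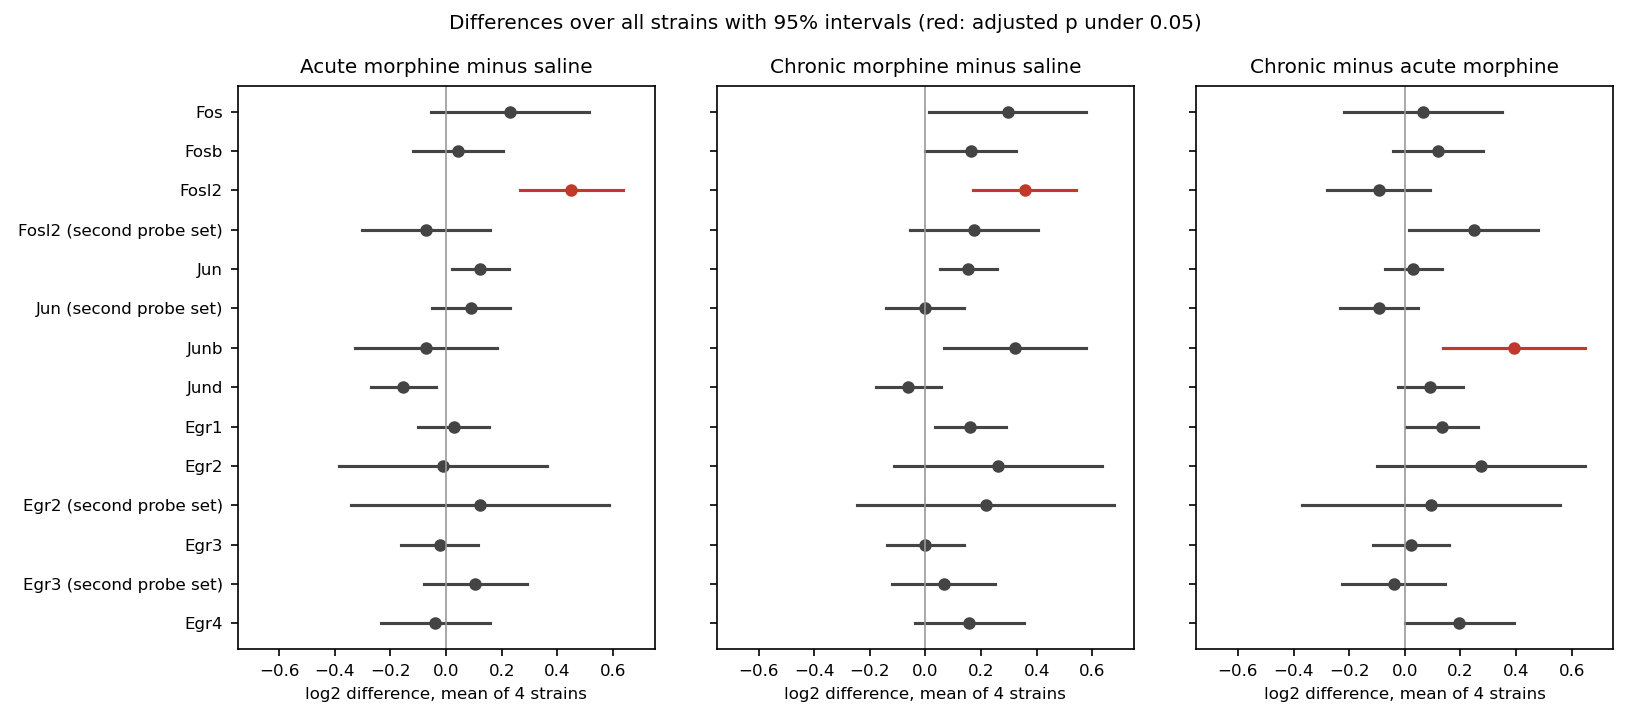
Log2 difference (x axis) averaged over the 4 strains for each of the 14 detected member probe sets (y axis), with 95% intervals, in the acute minus saline, chronic minus saline and chronic minus acute contrasts; red marks an adjusted p under 0.05. Fosl2 stood at 0.45 and 0.36 in the first 2 panels and Junb at 0.39 in the last, and the intervals of the Egr2 pair were the widest.

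None of the Egr probe sets was called for morphine over all strains. Egr1 (also known as Zif268), the member most used as a marker of plasticity in striatum, spanned 10.99 to 11.76 and differed from saline by 0.03 (SE 0.06) after acute and 0.16 (SE 0.06) after chronic morphine (limma adjusted p = 0.86 and 0.13). Egr3, an activity-induced factor also needed for muscle spindles, spanned 10.31 to 10.96 and differed by -0.02 (SE 0.07) and 0.00 (SE 0.07). Its 95% interval after chronic morphine was -0.14 to 0.14. The second Egr3 probe set (1421486_at) was not called either.

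Egr2 varied most of all members. Egr2 (Krox20) is known for Schwann cell myelination and hindbrain patterning, and in neurons it is one of the activity-induced factors. It ranged from 6.60 to 9.08, and its standard deviation within groups was 0.47, at the 98.03 percentile of the detected probe sets. The second Egr2 probe set (1427682_a_at) had a standard deviation of 0.59, at the 99.1 percentile, and passed the detection minimum on 21 of 36 arrays. Unlike those of Fosl2, the 2 Egr2 probe sets moved together (r = 0.92). Over all strains Egr2 differed from saline by -0.01 (SE 0.18) after acute and 0.26 (SE 0.18) after chronic morphine, with 95% intervals of -0.39 to 0.36 and -0.11 to 0.64.

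Egr4 and Egr2 differed between strains. Egr4 is an Egr factor expressed mainly in neurons. Over the 9 arrays of a strain it averaged 8.42 ± 0.47 (SD, n = 9) in C57BL/6J, 8.09 ± 0.25 in DBA/2J, 7.92 ± 0.24 in SWR/J and 7.86 ± 0.12 in 129P3/J. The C57BL/6J mean lay 0.35 above the mean of the 4 strains (SE 0.07, limma adjusted p = 0.000433), and remained called without any of the 36 arrays (0.31 to 0.42). The 129P3/J mean lay 0.22 below (SE 0.07, limma adjusted p = 0.0367), a call that was lost in 9 of those 36 fits. DBA/2J and SWR/J stood between and were not called against the mean of strains (limma adjusted p = 0.95 and 0.20).

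Egr2 averaged 8.21 ± 0.77 (SD, n = 9) in C57BL/6J, 7.87 ± 0.54 in DBA/2J, 7.73 ± 0.37 in SWR/J and 7.29 ± 0.34 in 129P3/J, the same order as Egr4. Neighbouring strains in this order were not tested against each other. It was higher than the mean of strains by 0.43 in C57BL/6J (SE 0.13, limma adjusted p = 0.0236) and lower by 0.49 in 129P3/J (SE 0.13, limma adjusted p = 0.0110). The second Egr2 probe set was higher by 0.50 in C57BL/6J (SE 0.16, limma adjusted p = 0.0367), and Egr1 by 0.13 (SE 0.04, limma adjusted p = 0.0459). After acute morphine alone, the C57BL/6J mean was below that of DBA/2J for these 3 probe sets and for Egr4. It was 7.63 against 8.29 for Egr2, 6.84 against 7.30 for its second probe set and 11.21 against 11.535 for Egr1. For Egr4 it was 8.03 against 8.27. In all, 4 of 14 member probe sets were called in C57BL/6J, where 11.2% of all detected probe sets were, and 2 of 14 in 129P3/J, where 9.22% were. None was called in DBA/2J or SWR/J, against 8.53% and 9.7% of all. Without the 3 saline arrays that stand apart only the C57BL/6J value of Egr4 (0.29, limma adjusted p = 0.00518) and the 129P3/J value of Egr2 (-0.49, limma adjusted p = 0.0188) were still called. The Egr2 call in C57BL/6J was also lost without saline replicate 1 or 2, acute replicate 2 or chronic replicate 1 of that strain (0.35 to 0.40, limma adjusted p of 0.063 to 0.090), and the Egr1 call was lost in 22 of the 36 fits that left out an array.

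All 6 of these calls held with the random block, with adjusted p of 4.24e-05 and 0.00919 for Egr4 in C57BL/6J and 129P3/J, 0.00615 and 0.00236 for Egr2, 0.00758 for the second Egr2 probe set and 0.024 for Egr1 in C57BL/6J. Markers of other cells also differed between strains. On a centred log2 scale the mean of 5 oligodendrocyte markers was 0.20 in C57BL/6J and between -0.10 and -0.03 in the other strains, and those of 6 microglial and 4 endothelial markers were 0.13 and 0.14 in C57BL/6J, the highest of the 4 strains. Cortical markers were lowest in C57BL/6J (-0.22) and highest in 129P3/J (0.21). Over the 36 arrays, which share strain and treatment, Egr4 had r = 0.36 with the oligodendrocyte mean, 0.38 with the endothelial mean and -0.32 with the cortical mean. The part of cell composition in the strain differences was not tested.

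F-tests over the whole design called Fosl2 for morphine and Egr4 for strain. At a false discovery rate of 1%, 1 of 14 member probe sets had a morphine effect (Fosl2, limma adjusted p = 0.00219, and 0.066 with the random block), where 8.71% of all detected probe sets had one. For strain, 1 of 14 had an effect (Egr4, limma adjusted p = 0.00088, and 8.12e-05 with the random block), where 13.2% of all had one. Both Egr2 probe sets passed 1% too with the random block (adjusted p = 0.0021 and 0.0090, against limma adjusted p of 0.0117 and 0.0513 without it). No member was called for an interaction of strain and morphine, and 0% of the 27212 detected probe sets were by limma. At an unadjusted p under 0.05 the interaction was met by 5 of the 14 (Fosl2, the second Jun probe set, Egr1, Egr2 and Egr4) and by 1399 of all detected probe sets. A difference between strains in the response of any member was therefore not called.

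Within strains, the arrays of several members did not overlap between groups in DBA/2J and in C57BL/6J. In DBA/2J, all 3 acute arrays lay above all 3 saline arrays for 6 of the 14 member probe sets (Fos, Fosl2, the second Jun probe set, Egr1, Egr2 and Egr4), against 15.5% of all detected probe sets. All 3 chronic arrays lay above all 3 saline arrays for 5 of the 14 (Fos, Fosl2, Egr1, Egr2 and Egr4), against 2.16% of all. Both counts rest on the same 3 saline arrays, and 1 of those is among the arrays that stand apart. The members are correlated with each other, so these are not separate observations.

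The DBA/2J values were as follows. Egr1 read 10.99, 11.23 and 11.16 after saline and 11.69, 11.41 and 11.50 after acute morphine, a difference of 0.41 (SE 0.12, limma adjusted p = 0.096). Fos read 8.07, 8.16 and 7.47 and then 8.71, 8.50 and 8.62, a difference of 0.71 (SE 0.27, limma adjusted p = 0.17). Egr2 read 7.18, 7.79 and 7.05 and then 8.81, 7.80 and 8.27, a difference of 0.95 (SE 0.36, limma adjusted p = 0.17). These differences did not pass the test, and for Egr2 the closest acute and saline arrays were 7.80 and 7.79. Without DBA/2J saline replicate 3 and the other arrays that stand apart, the Fos difference was 0.50 and the Egr2 difference 0.81.

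In C57BL/6J the separation was between the morphine groups. All 3 chronic arrays lay above all 3 acute arrays for 8 of the 14 member probe sets, against 10.5% of all detected probe sets. These 8 were Fos, Fosl2, the second Jun probe set, Junb, Egr1, both Egr2 probe sets and Egr4. Egr4 read 7.86, 8.29 and 7.95 after acute and 9.02, 8.66 and 8.92 after chronic morphine, a difference of 0.83 (SE 0.19) that fell just outside the threshold (limma adjusted p = 0.055, and 0.047 with the random block). Egr2 read 7.49, 7.98 and 7.43 and then 9.08, 8.80 and 8.51, a difference of 1.16 (SE 0.36, limma adjusted p = 0.14). Egr1 differed by 0.48 (SE 0.12, limma adjusted p = 0.087).

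The C57BL/6J saline arrays were themselves far apart for these genes. For Egr2 they read 8.81, 8.83 and 6.95, for Egr4 8.69, 8.63 and 7.75, and for Egr1 11.66, 11.64 and 11.15. Replicates 1 and 2 lay in or near the chronic range, and replicate 3 lay below every acute array for Egr2 and Egr4. For Egr2 the saline pools thus lay further apart than the means of the morphine groups. In 129P3/J and SWR/J, no morphine group lay wholly above saline for Fos, Egr1, Egr2 or Egr4, and the SWR/J saline replicate 1 was the highest of that strain for Fos, Egr2 and Egr4 (9.14, 8.40 and 8.40).

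**Figure D3:**
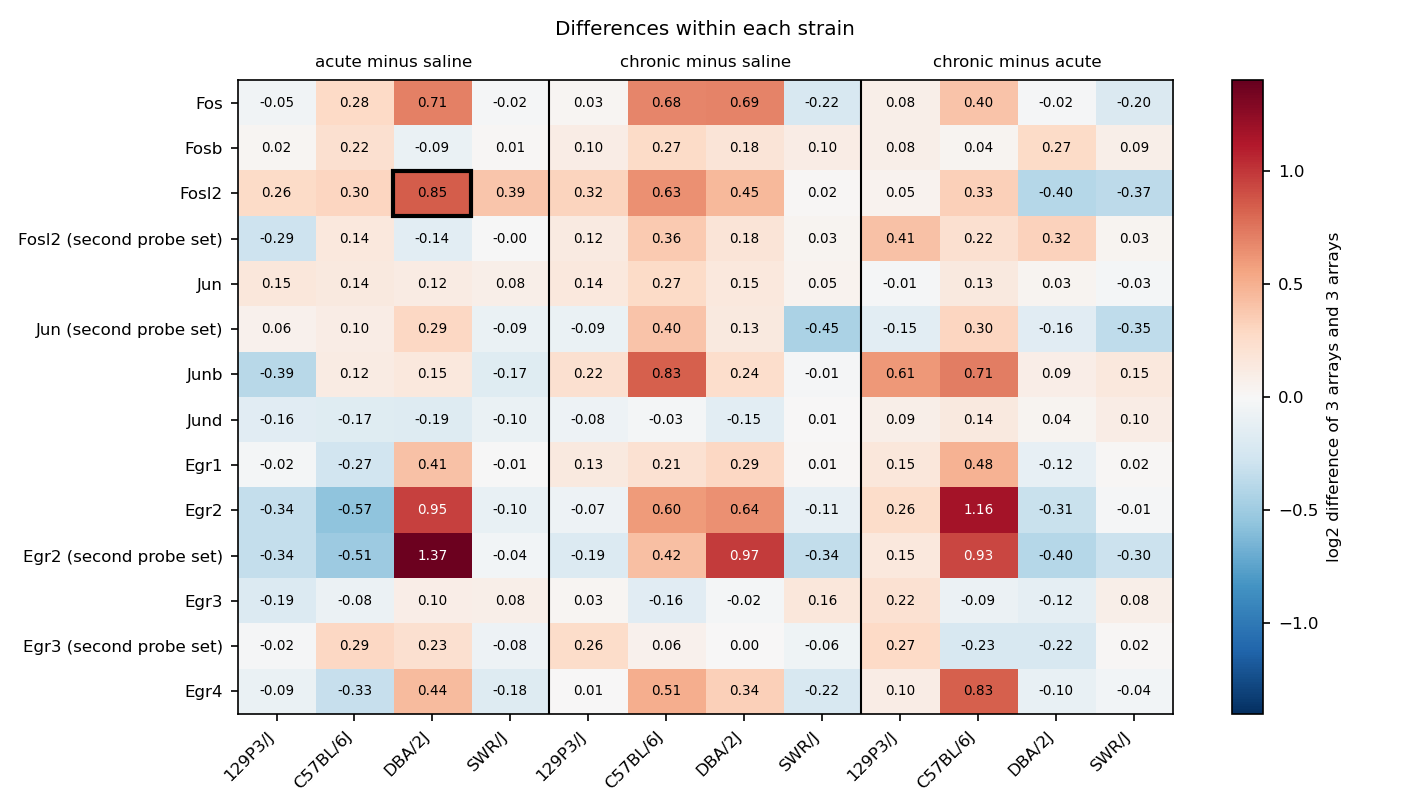
Log2 difference of 3 arrays and 3 arrays (colour and printed value) for the 14 member probe sets (rows) in each strain (columns) and contrast (blocks); the outlined cell is the single called difference, 0.85 for Fosl2 in DBA/2J. Acute columns held values above 0 for 11 of 14 probe sets in DBA/2J, 8 in C57BL/6J and 4 each in SWR/J and 129P3/J. Chronic minus saline columns held them for 12 each in DBA/2J and C57BL/6J, 10 in 129P3/J and 7 in SWR/J. Chronic minus acute columns held them for 12 each in C57BL/6J and 129P3/J, 7 in SWR/J and 5 in DBA/2J. Some probe sets share a gene and members are correlated, so these counts are not separate observations. The shares over all detected probe sets are not given here. The acute columns of 129P3/J and C57BL/6J hold negative values for Egr2 (-0.34 and -0.57).

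The members did not vary independently. Fos, Egr1, both Egr2 probe sets and Egr4 followed each other over the 36 arrays, with r between 0.66 and 0.92 and a median of 0.79 over their 10 pairs, while the other 81 pairs had a median of 0.13. The same 5 probe sets followed each other within groups: over the deviations from the 12 group means, the 10 pairs had r between 0.54 and 0.90 with a median of 0.71, and the other pairs a median of 0.15. These are descriptions over arrays that share strain, treatment and replicate number, and these 5 were singled out after the correlations were seen. The joint movement was thus present between pools of mice with the same strain and treatment. Junb joined them in part (r = 0.64 with Fos, 0.60 with Egr4), as did Fosl2 (r = 0.69 with Egr1). Fosb, both Jun probe sets and Jund followed these 5 less closely. Egr3 had r of 0.19 to 0.38 with the 5 over the 36 arrays. With group means removed its r ran from 0.23 with Egr1 to 0.65 with Fos.

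**Figure D4:**
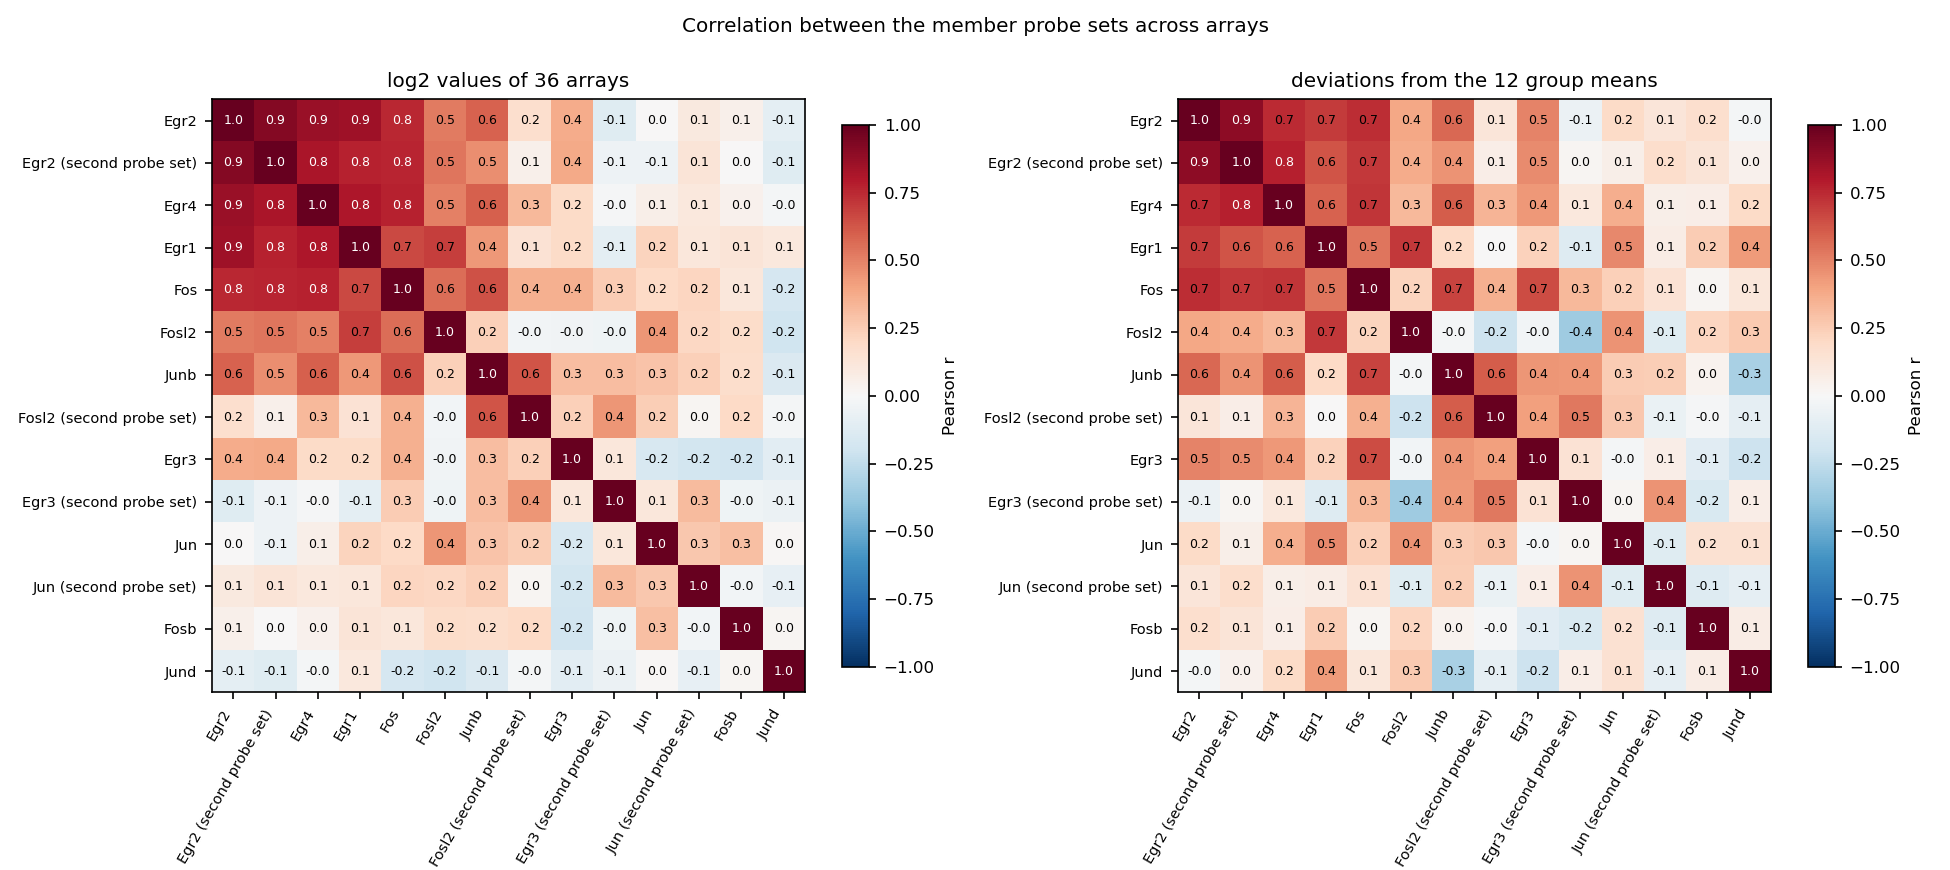
Pearson correlation between each pair of the 14 detected member probe sets (rows and columns, colour and printed value), over the log2 values of the 36 arrays on the left and over their deviations from the 12 group means on the right. The block at the upper left, Egr2 to Fos, holds r from 0.66 to 0.92 on the left and from 0.54 to 0.90 on the right.

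Promoters of members that moved together are shown beside that of Fosl2, the member called against saline over all strains, a call lost with the random block. RefSeq promoters on the build GRCm38.p6 were at hand for 8 of the 10 genes. Those of Egr1 and Egr3 were missing and were not searched. Each sequence below is the 250 bases before the annotated start, 5′ to 3′ on the strand of the gene. Capitals mark the core of the cAMP response element (TGACG, or CGTCA where it lies on the other strand), the serum response element (CArG box) in Egr2, the TATA box TATAAA in Fos and the Egr site GCGNGGGCG in Fosl2.
Fos, chr12:85473640-85473889, plus strand: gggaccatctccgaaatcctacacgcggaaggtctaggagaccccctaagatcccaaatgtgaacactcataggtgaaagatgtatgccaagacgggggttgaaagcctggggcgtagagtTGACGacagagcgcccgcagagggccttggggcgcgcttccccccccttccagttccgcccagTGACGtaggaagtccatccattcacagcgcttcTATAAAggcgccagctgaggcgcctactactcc
Egr2, chr10:67537619-67537868, plus strand: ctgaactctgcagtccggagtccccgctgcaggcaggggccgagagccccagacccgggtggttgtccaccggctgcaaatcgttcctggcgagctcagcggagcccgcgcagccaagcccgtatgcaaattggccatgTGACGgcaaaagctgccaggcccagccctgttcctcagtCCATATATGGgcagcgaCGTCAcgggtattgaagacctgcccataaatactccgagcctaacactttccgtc
Egr4, chr6:85513590-85513839, minus strand: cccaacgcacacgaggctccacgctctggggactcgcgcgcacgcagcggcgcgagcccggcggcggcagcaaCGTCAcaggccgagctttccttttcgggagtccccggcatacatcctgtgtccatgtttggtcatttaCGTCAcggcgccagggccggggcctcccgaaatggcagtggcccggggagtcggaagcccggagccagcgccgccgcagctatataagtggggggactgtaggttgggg
Fosl2, chr5:32136222-32136471, plus strand: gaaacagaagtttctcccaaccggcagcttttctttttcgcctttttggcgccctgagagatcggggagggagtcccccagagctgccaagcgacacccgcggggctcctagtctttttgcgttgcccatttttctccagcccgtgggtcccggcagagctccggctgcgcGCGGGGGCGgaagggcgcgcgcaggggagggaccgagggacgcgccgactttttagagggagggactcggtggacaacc

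The core TGACG, searched on both strands, was found in the promoters of 5 of the 8 genes searched. It lay at -129 and -66 in Fos and at -177 and -109 in Egr4, counting the first base of the match from the start. It also lay at -111 and -55 in the Egr2 promoter shown, at -60 in Fosb and at -106 in Junb. It is held by 17.8% of all 32851 promoters searched. This share and those below are by promoter, while members are counted by gene, with a match in any promoter of the gene. The 8 genes have 12 promoters in all, 5 of them of Egr2. The full element TGACGTCA, which contains this core and is found in 1.55% of promoters, was in none of the members' windows. CREB, the factor named for this element, is a target of PKA.

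The serum response element was found in Egr2, at -72, and 1.47% of all promoters hold it. Egr2 has 5 annotated starts on the list, and the promoter shown is one of them. The Egr site was found in Fosl2, at -79, and in Fosb, at -50, against 4.7% of all promoters. The TATA box was found in Fos, at -33, against 12.4%, and the AP-1 site TGANTCA in none of the 8 genes searched, against 6.75%. The glucocorticoid response element was found in none of these 8, and in 0.00913% of all promoters. No match says only that these letters are not in these 250 bases.

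Other genes had patterns like those of the members. By correlation over the 36 arrays, with members left out, the nearest genes to Fos were Dusp1 (r = 0.88), Nr4a1 (r = 0.85) and Tiparp (r = 0.71). Nr4a1 was also nearest to Egr2 (r = 0.83) and to Egr4 (r = 0.85), and Nr4a3 was nearest to Fosl2 (r = 0.86) and to Egr1 (r = 0.82). Dusp1 is a phosphatase of the MAP kinases, and Nr4a1 and Nr4a3 are orphan nuclear receptors that are themselves immediate early genes. Arc, a synaptic protein of the same class, was near Egr1 (r = 0.78), and Peli1 was near Egr2 and Egr4 (r = 0.79 and 0.77). Dusp1 stayed among the 3 nearest of Fos and Egr2 when group means were removed (r = 0.87 and 0.80), as did Nr4a1 for Egr4 (r = 0.81) and Nr4a3 for Fosl2 (r = 0.80).

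The nearest genes of the other members were not of this kind. Those of Jund were Selenow, Dtx3 and Anapc11 (r = 0.84 to 0.85), those of Junb were Rbm6, Irf2bpl and Kctd18 (r = 0.78 to 0.80) and those of Egr3 were Fam131b, Zswim5 and Ing1 (r = 0.74 to 0.83). Those of Jun were Pdzd2, Slc30a3 and Adpgk (r = 0.64 to 0.67) and those of Fosb were Spon2, Foxd2 and Gprin1 (r = 0.59 to 0.63). The remaining near genes were Dio2 and Fzd2 for Fosl2 (r = 0.76 and 0.74), Dnajb5 for Egr1 (r = 0.78) and Hcfc2 for Egr4 (r = 0.80). Of the 3 nearest genes of a member, between 0 and 1 were the same with group means removed. By that measure Rgs2, one of the other activity-induced genes counted below, was nearest to Egr2 (r = 0.84). It was also among the 3 nearest of Junb (r = 0.83).

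Genes of the wider pathway were counted from 5 lists of 110 genes in all, of which 95 had a detected probe set for that gene alone. Over all strains, 8 of the 95 (8.42%) were called after acute morphine, 6 higher and 2 lower, and 14 (14.7%) after chronic morphine, 10 higher and 4 lower. Chronic and acute morphine differed for 18 (18.9%), 10 higher after chronic and 8 lower. The shares over all probe sets were the 4.69%, 4.73% and 23.4% given above. With the random block none of the acute or chronic calls remained, and 6 of those between chronic and acute did. Of these 6, the phosphatases Dusp5 (0.40, adjusted p = 0.040 with the block) and Dusp14 (0.35, adjusted p = 0.031) were higher after chronic morphine. Lower were the stress-response factor Nfe2l2 (-0.38, adjusted p = 0.0195), the deacetylase Hdac1 (-0.28, adjusted p = 0.025), the kinase Rps6ka5 (-0.25, adjusted p = 0.042) and the antiproliferative factor Btg2 (-0.25, adjusted p = 0.044).

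Among feedback inhibitors and Egr co-repressors, all 25 listed genes were detected, with 2 lower after acute morphine and 4 higher and 1 lower after chronic morphine. The MAP kinase phosphatases Dusp4 and Dusp5 rose after chronic morphine by 0.50 (SE 0.11) and 0.48 (SE 0.09), with limma adjusted p of 0.00602 and 0.00195. Ier3, an early gene tied to cell survival, rose by 0.33 (SE 0.07, limma adjusted p = 0.00504). Dusp16, a phosphatase that favours JNK, fell by 0.27 (SE 0.06) after acute morphine (limma adjusted p = 0.0111). With the random block the adjusted p-values of these 4 were 0.12, 0.082, 0.12 and 0.16.

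Among other activity-induced genes, 22 of 26 were detected, with 5 higher after acute morphine and 5 higher and 1 lower after chronic morphine. Arc rose after chronic morphine by 0.50 (SE 0.10, limma adjusted p = 0.00471) and Nr4a3 by 0.46 (SE 0.10, limma adjusted p = 0.00632). Ccn2, a secreted matrix protein, rose by 0.49 (SE 0.11) after chronic and 0.40 (SE 0.11) after acute morphine (limma adjusted p = 0.00756 and 0.0260). Klf4, a zinc finger factor, rose by 0.34 (SE 0.08) after acute morphine (limma adjusted p = 0.0127). With the random block the adjusted p-values were 0.095 for Arc, 0.18 for Nr4a3, 0.17 and 0.27 for Ccn2 and 0.15 for Klf4.

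Among kinases and factors upstream, 19 of 26 were detected and none was called after acute morphine. After chronic morphine Mrtfa, a cofactor of SRF, rose by 0.25 (SE 0.06, limma adjusted p = 0.0148) and the Ets factor Elk3 fell by 0.20 (SE 0.06, limma adjusted p = 0.0480), and with the random block their adjusted p-values were 0.19 and 0.33. Among AP-1 partners and competitors, 15 of 18 were detected and none was called against saline. The largest differences were 0.28 for Jdp2 after chronic morphine (SE 0.09, limma adjusted p = 0.063) and 0.21 for Atf7 after acute morphine (SE 0.09, limma adjusted p = 0.19). Among proposed striatal targets of FosB and Egr factors, 14 of 15 were detected. Gria1, an AMPA receptor subunit, rose by 0.15 after acute morphine (SE 0.04, limma adjusted p = 0.0328) and the deacetylase Hdac1 fell by 0.22 after chronic morphine (SE 0.06, limma adjusted p = 0.0334), both lost against saline with the random block (adjusted p = 0.27 and 0.24).

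Markers of cell types moved with treatment too. In whole striatum, fewer cells of a type and less RNA per cell cannot be told apart. The mean of 7 detected of 9 listed markers of cortical excitatory neurons, centred on all arrays, lay between -0.92 and 0.31 on the saline arrays, -0.38 and 0.42 on the acute arrays and -0.29 and 0.83 on the chronic arrays. Of these markers Neurod2 and Nrn1 were called after chronic morphine (0.59 and 0.60, limma adjusted p = 0.00738 and 0.0276, and 0.098 and 0.17 with the random block). The correlation of this mean with a member over the 36 arrays was 0.27 for Fosl2, -0.15 for Junb, -0.20 for Fos, -0.32 for Egr4 and -0.40 for Egr2. It was 0.47 for Jun. Other lists had values of like size or larger. The astrocyte mean, which averaged -0.08 on chronic, 0.05 on acute and 0.04 on saline arrays, had r = -0.52 with Junb and -0.46 with Fosb. The endothelial mean had r = 0.47 with Egr1, the oligodendrocyte mean r = -0.49 with Jun and the interneuron mean r = -0.61 with Egr3. The mean of 9 detected of 11 listed markers of medium spiny neurons ranged from -0.07 to 0.25 on saline, -0.23 to 0.10 on acute and -0.19 to 0.06 on chronic arrays. Of these, Rasgrp2 was lower after acute morphine (-0.28) and Drd2 and Rgs9 after chronic morphine (-0.27 and -0.18). Of the other lists, 2 of 6 astrocyte markers and 2 of 5 oligodendrocyte markers were lower after chronic morphine, and 1 of 6 microglial markers was lower after acute morphine. Of 4 endothelial markers, 2 were lower after acute and 1 after chronic morphine. No marker of striatal interneurons, septum, choroid plexus or red blood cells was called against saline. With the random block, only Cx3cr1 of microglia (-0.52) and Tek of endothelium (-0.27) were still called against saline, both after acute morphine. The part of cell composition in the members' differences was not tested.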

How the data were processed

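Striatal RNA of 36 pools of mice was hybridized to 1 array each, with 3 arrays per group. The deposited intensity values are on a linear scale and were normalized between arrays by the authors, whose methods describe several algorithms, among them the model-based expression index of dChip. Which of them made these values is not given in the sources used here. Probe sets were kept where log2 intensity was above 6.64 on at least 9 of 36 arrays (27212 of 45101), after 64 control probe sets were removed. A model of 12 group means was fitted with limma 3.58.1 in R 4.3.3, with Benjamini-Hochberg adjustment over the detected probe sets. Contrasts were called at an adjusted p under 0.05 and F-tests at a false discovery rate of 1%. The fit was tested on simulated data.

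All probe sets of the 10 members were named. From each pathway list up to 4 genes past the threshold with the largest difference from saline were named, or 2 where none passed, and for each member the 3 genes of highest correlation. Where a gene had several detected probe sets, the brightest on average stood for it. The members, lists, alternatives and doubted arrays were chosen with earlier results of these data known. Each array is a pool, so p-values measure the spread between pools, and precision is limited by having 3 arrays a group. Alternatives covered the filter, pseudocount, normalization, moderation, array weights, replicate blocks, thresholds, probe set choice and each array left out.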

Additional observations from a re-analysis of the deposited data

Results flagged for a closer look

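The difference between chronic and acute morphine ran in opposite directions in a pair of strains for 2 member probe sets. Fosl2 was higher after chronic than after acute morphine in C57BL/6J (0.33) and lower in DBA/2J (-0.40), and the 3 arrays of each group did not overlap in either strain. The second Jun probe set was higher in C57BL/6J (0.30) and lower in SWR/J (-0.35), again without overlap. Such separation was not rare on the array. All 3 chronic arrays lay above all 3 acute arrays for 10.5% of all detected probe sets in C57BL/6J. They lay below for 17.6% in DBA/2J and for 14.9% in SWR/J. The share of probe sets that separated in opposite directions in a pair of strains is not given here. The interaction of strain and morphine, which tests all 4 strains and 3 treatments together, had an unadjusted p of 0.033 for Fosl2 and 0.0039 for the second Jun probe set in the limma F-test, and neither passed after adjustment (limma adjusted p = 0.96 and 0.85). The difference between those strains alone was not tested.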

How the results depend on the processing

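Of 14 member probe sets, 1 was called after acute morphine, 1 after chronic morphine and 1 between chronic and acute. Within a strain 1 call was made, where calls are added up over the 12 contrasts and not counted by probe set. By F-test 1 was called for morphine and 1 for strain, and 40 calls were made among the pathway genes. With treatment and number as a random replicate block these became 0, 0, 0, 2, 0, 3 and 6. With the number alone as a fixed replicate block they were 2 after acute morphine, 7 within a strain and 3 for strain, and the other counts moved by less than 1.5 times; not every pair of arrays with a shared number deviated together. With array weights they were 3, 3 and 2, with 13 calls within a strain over the 12 contrasts, 2 for strain and 83 pathway calls. Quantile normalization gave 3 after chronic morphine, 3 between chronic and acute and 3 within a strain, a pseudocount of 32 gave 2 within a strain and 2 for strain, and trend and robust moderation gave 2 within a strain. Without the 3 saline arrays that stand apart 2 were called after chronic morphine. At an adjusted p under 0.01, 0 were called after chronic morphine, 0 between chronic and acute and 0 within a strain, with 14 pathway calls, and at a false discovery rate of 5% the F-tests called 3 for morphine and 2 for strain. The interaction called 0 under each alternative run. Leaving out 1 array at a time gave 1 to 1 after acute morphine, 1 to 3 after chronic morphine, 0 to 2 between chronic and acute, 0 to 5 within a strain, 1 to 5 for strain and 30 to 49 pathway calls. The shares of all detected probe sets called under each alternative are not given here, so these counts alone are not a result about the members. The cause of the shifts was not tested.

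Signs turned only for differences that were not called. Egr3 after chronic morphine was 0.038 with quantile normalization, 0.014 with array weights and 0.033 on the mean of the probe sets of the gene. Egr2 after acute morphine was 0.126 with array weights, 0.0485 without the 3 saline arrays and 0.055 on the gene mean, and Egr4 was 0.0026 with array weights. The second Egr3 probe set after chronic morphine was -0.031 without the 3 saline arrays. On the gene mean, Egr3 was 0.042 after acute morphine and -0.009 between chronic and acute, where Fosl2 was 0.0765 and Jun -0.030. With 1 array left out, the ranges that crossed 0 after acute morphine were -0.137 to 0.0057 for Junb, -0.0145 to 0.054 for Egr1, -0.0139 to 0.0745 for Fosb, -0.0548 to 0.235 for the second Egr2 probe set, -0.167 to 0.068 for Egr2, -0.054 to 0.0205 for Egr3 and -0.114 to 0.0045 for Egr4. After chronic morphine they were -0.0568 to 0.0507 for the second Jun probe set and -0.0318 to 0.0428 for Egr3, and between chronic and acute -0.0024 to 0.0548 for Egr3.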
